A study of Mus musculus with 4 samples.

Results

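Single cells of the mouse mesenteric lymph node were read for the apolipoprotein L genes Apol7c, Apol7e, Apol7b and Apol10b and for Wdfy4. These are 5 of the 32289 genes in each count table and were picked by name for what they showed in these cells, so their own levels and differences are given as a description, without a test. The cells came from 12 untreated mice, 15 days old, that carry an iCre and human CD2 (hCD2) cassette at the Gm38411 locus and the R26 tdTomato reporter. Cre switches tdTomato on permanently, whereas hCD2 follows present activity of the locus. Cells sorted as CD3-, B220-, CD11c+, MHC-II+ and tdTomato+ were collected as an hCD2+ and an hCD2- fraction, and each fraction was 1 droplet library in which a hashtag antibody marked the mouse. A difference between fractions therefore cannot be told apart from a difference between the 2 libraries, and differences between cell classes within a library are free of that limit.

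Unique molecular identifiers (UMIs, counted mRNA molecules) were available for 7099 hCD2+ and 4762 hCD2- cells, with medians of 17486 and 23846 UMIs per cell and between 5914558 and 17966298 UMIs per mouse and fraction. Summed over all cells of a mouse, the locus and its reporter followed the sort: Gm38411 averaged 41.0 ± 5.83 CPM (UMIs of the gene per 1000000 UMIs) in hCD2+ and 1.27 ± 0.392 CPM in hCD2- cells, and the hCD2 transcript 38.1 ± 6.08 and 1.21 ± 0.589 CPM (SD, n = 12 mice each). The libraries shared 20 cell barcodes, 0.227% of the hCD2+ and 0.357% of the hCD2- called barcodes. Clusters were named from marker genes as "like" a cell type. The classes held, in hCD2+ and hCD2- cells, 751 and 990 CCR7 migratory DC-like cells, 1247 and 164 Prdm16 or Aire DC-like cells, 116 and 332 cDC1-like cells, 184 and 908 cDC2-like cells, 2399 and 165 ILC3 or LTi-like cells (type 3 innate lymphoid and lymphoid tissue inducer cells), 333 and 1005 T cell-like cells, 57 and 423 NK or ILC1-like cells, 32 and 103 plasmacytoid (pDC)-like cells, and 113 and 50 monocyte or macrophage-like cells. T cell-like cells were present although the sort was against CD3. Other clusters had low UMI counts, carried T cell markers beside dendritic ones or were led by genes of another list, and stayed unnamed. Levels below are CPM of the UMIs summed per mouse and class, in mice with at least 10 cells of that class, as mean ± SD.

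Apolipoprotein L proteins are intracellular relatives of a human serum protein that forms pores in membranes, and several of their genes are induced by interferon. In mouse dendritic cells APOL7C is recruited to phagosomes and helps release their content into the cytosol. WDFY4 is a BEACH-domain protein that mouse cDC1 need to cross-present antigen from dead cells, that is, to load peptides of ingested protein on MHC class I for CD8 T cells.

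The 4 Apol genes lie among 11 Apol genes within 369 kb of mouse chromosome 15 (GRCm38, GENCODE vM21, positions 77388219 to 77757003). Apol7b (ENSMUSG00000068252) spans 77422209 to 77447492 on the minus strand, Apol7c (ENSMUSG00000044309) 77524852 to 77533316 on the minus strand, Apol10b (ENSMUSG00000050014) 77583819 to 77596125 on the minus strand and Apol7e (ENSMUSG00000071716) 77698857 to 77719285 on the plus strand. Wdfy4 (ENSMUSG00000051506) spans 32959547 to 33185508 of chromosome 14 on the minus strand. The promoters of the 4 Apol genes are shown because the genes fell into 2 expression groups, Apol7c with Apol10b and Apol7e with Apol7b. By promoter sequence Apol7e and Apol7b also pair, but Apol7c is closer to these than to Apol10b. Each line holds 220 bases, from 200 before to 20 after the RefSeq start (GRCm38.p6: Apol7c chr15:77533296-77533515 minus strand, Apol7e chr15:77698689-77698908 plus strand, Apol7b chr15:77447441-77447660 minus strand, Apol10b chr15:77596106-77596325 minus strand), and capitals mark matches to the core of the interferon-stimulated response element (ISRE: GAAA, any 2 bases, GAAA) or to AGGTCA, the nuclear receptor half-site that ROR proteins bind, on either strand.
Apol7c: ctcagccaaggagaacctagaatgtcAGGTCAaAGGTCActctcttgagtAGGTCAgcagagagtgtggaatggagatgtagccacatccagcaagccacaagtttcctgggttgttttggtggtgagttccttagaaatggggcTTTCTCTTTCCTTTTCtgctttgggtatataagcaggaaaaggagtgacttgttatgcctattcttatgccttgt
Apol7e: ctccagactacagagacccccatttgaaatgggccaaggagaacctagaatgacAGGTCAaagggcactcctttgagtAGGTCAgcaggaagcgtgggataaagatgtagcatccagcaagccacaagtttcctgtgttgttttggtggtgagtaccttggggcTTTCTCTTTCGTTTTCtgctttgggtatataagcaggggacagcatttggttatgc
Apol7b: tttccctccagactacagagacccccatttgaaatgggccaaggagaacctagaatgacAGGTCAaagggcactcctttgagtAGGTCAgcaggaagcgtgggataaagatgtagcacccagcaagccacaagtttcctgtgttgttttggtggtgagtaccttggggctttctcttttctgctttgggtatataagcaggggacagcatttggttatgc
Apol10b: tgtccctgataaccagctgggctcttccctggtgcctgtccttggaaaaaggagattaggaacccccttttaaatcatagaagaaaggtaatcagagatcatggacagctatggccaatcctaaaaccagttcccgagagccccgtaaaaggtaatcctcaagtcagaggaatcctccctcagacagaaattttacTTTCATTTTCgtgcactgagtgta

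Over the 300 bases from 250 before to 50 after the start, Apol7e and Apol7b were identical at 293 bases (97.7%), Apol7c was identical to Apol7e at 81.3% and to Apol7b at 80.3%, and Apol10b and Wdfy4 were identical to any other member at 58.3% to 60.3%. The alignment of Apol7e and Apol7b held 2 mismatched bases and, 30 bases before the start, 5 bases that Apol7e has and Apol7b lacks. Those 5 bases lie inside the ISRE matches of Apol7e. The ISRE core was found as 2 overlapping matches in Apol7c (at -55 and -49) and in Apol7e (at -36 and -30), once in Apol10b (at -4), and not in the windows of Apol7b and Wdfy4. Among 27025 RefSeq promoters of equal length, 3.49% held it and 0.252% held it at least 2 times. AGGTCA matched 3 times in Apol7c, 2 times in Apol7e and 2 times in Apol7b, against 1.74% of promoters with at least 2 matches and 16% with any. Of the other motifs searched on both strands, GAGGAA (28.3% of promoters) and GGGNNTTCC (5.72%) matched in Apol10b, TGTGGT (16.9%) matched in Wdfy4, and TGANTCA (7.93%) and the composite of GGAA, any 2 bases and GAAA (2.79%) matched in 0 of the 5.

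The 3′ ends matter more for the counts, since this assay reads transcripts from there. In the last 500 bases of its coding transcripts, 100% of the 90-base words of Apol7e also occurred in Apol7b, and 71.7% of those of Apol7b occurred in other genes, Apol7e and Apol7c among them. For Apol7c the share was 9.58%, and for Apol10b and Wdfy4 it was 0%. How reads that match several genes were counted is not given in the sources used here, so the division of molecules between Apol7e and Apol7b is uncertain. The antisense genes that overlap exons of Apol7e and Apol7b, Gm36329 and 4930571N24Rik, had 39 and 83 UMIs over all kept cells. Apol7c had 184539, Apol7e 6919, Apol7b 3744, Apol10b 4593 and Wdfy4 122984.

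CCR7 migratory DC-like cells were named from markers of mature dendritic cells such as Ccr7 and Fscn1, and their origin was not tested. Apol7c was a gene of these cells. Its level there ranged from 2319 to 3855 CPM with a median of 3129 in the 12 hCD2+ samples (3156 ± 541 CPM), and from 2325 to 4070 CPM with a median of 2993 in the 12 hCD2- samples (3024 ± 447 CPM). Every one of these samples was above every sample of the other classes, in both fractions. Prdm16 or Aire DC-like cells came next, at 135 to 435 CPM (median 274) in the 12 hCD2+ samples and 7.28 to 167 CPM (median 23.0) in the 10 hCD2- samples. In the hCD2- library the class was high in some mice and near the level of other classes in others.

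The cDC1-like and cDC2-like classes, called resident here by name alone, held little of it. cDC1-like cells averaged 49.9 ± 46.1 CPM of Apol7c in 6 hCD2+ samples (range 1.496 to 132; 109 CPM at clustering resolution 2.0) and 37.3 ± 34.3 CPM in 12 hCD2- samples (3.62 to 134). cDC2-like cells averaged 89.7 ± 123 CPM in 9 hCD2+ samples (0 to 298) and 26.9 ± 40.01 CPM in 12 hCD2- samples (4.65 to 145). These classes overlapped each other in both fractions, and a few cells carried most of the signal: 94.7% of the Apol7c UMIs of hCD2+ cDC2-like cells were in 10 of 184 cells, and 78.9% of those of hCD2- cDC2-like cells in 46 of 908, while 84.2% and 80.7% of the cells had 0. In cDC1-like cells the top 5% of cells held 58.3% of the hCD2+ and 72.6% of the hCD2- UMIs, against 18.6% and 17.1% in CCR7 migratory DC-like cells. The 10 markers of the CCR7 class summed to 1078 CPM in hCD2+ and 959 CPM in hCD2- cDC2-like cells and to 531 and 537 CPM in cDC1-like cells, against 12081 and 12028 CPM in the CCR7 class itself. The part of misplaced or joined cells in these levels was not tested.

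ILC3 or LTi-like cells (5.28 ± 1.82 CPM in hCD2+, 8.20 ± 5.92 in hCD2-), T cell-like cells (4.81 ± 4.56 and 20.7 ± 25.1), and hCD2- NK or ILC1-like (7.71 ± 4.53) and pDC-like cells (7.39 ± 5.50) had mean Apol7c levels no higher than free RNA could give. That bound, taken from droplets of 10 to 100 UMIs, was 9.90 CPM in hCD2+ and 11.1 CPM in hCD2- ILC3 or LTi-like cells, and 18.1 and 29.5 CPM in T cell-like cells. It was 19.98 CPM in hCD2- NK or ILC1-like and 15.8 CPM in hCD2- pDC-like cells. Single hCD2- T cell-like samples, which ranged from 5.59 to 94.4 CPM, were above their bound. It was 27.5 CPM in hCD2- cDC2-like cells, where the measured 26.9 CPM was also not above it.

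With every cell thinned to 5000 UMIs, Apol7c was seen in 91.5% of hCD2+ CCR7 migratory DC-like cells (664 of 726, 95% Wilson interval 89.2% to 93.3%) and in 93.6% of hCD2- ones (872 of 932, 91.8% to 94.97%). The interval covers counting error alone. Unthinned, the shares were 95.7% and 94.9%, at class medians of 32849 and 29310.5 UMIs. It was seen in 38.6% (hCD2+) and 13.3% (hCD2-) of Prdm16 or Aire DC-like cells, 10.8% and 8.56% of cDC1-like cells, and 7.06% and 4.82% of cDC2-like cells. T cell-like cells, which should lack the gene, gave 2.63% and 4.94%, so the hCD2- cDC2-like share was near background.

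**Figure D1:**
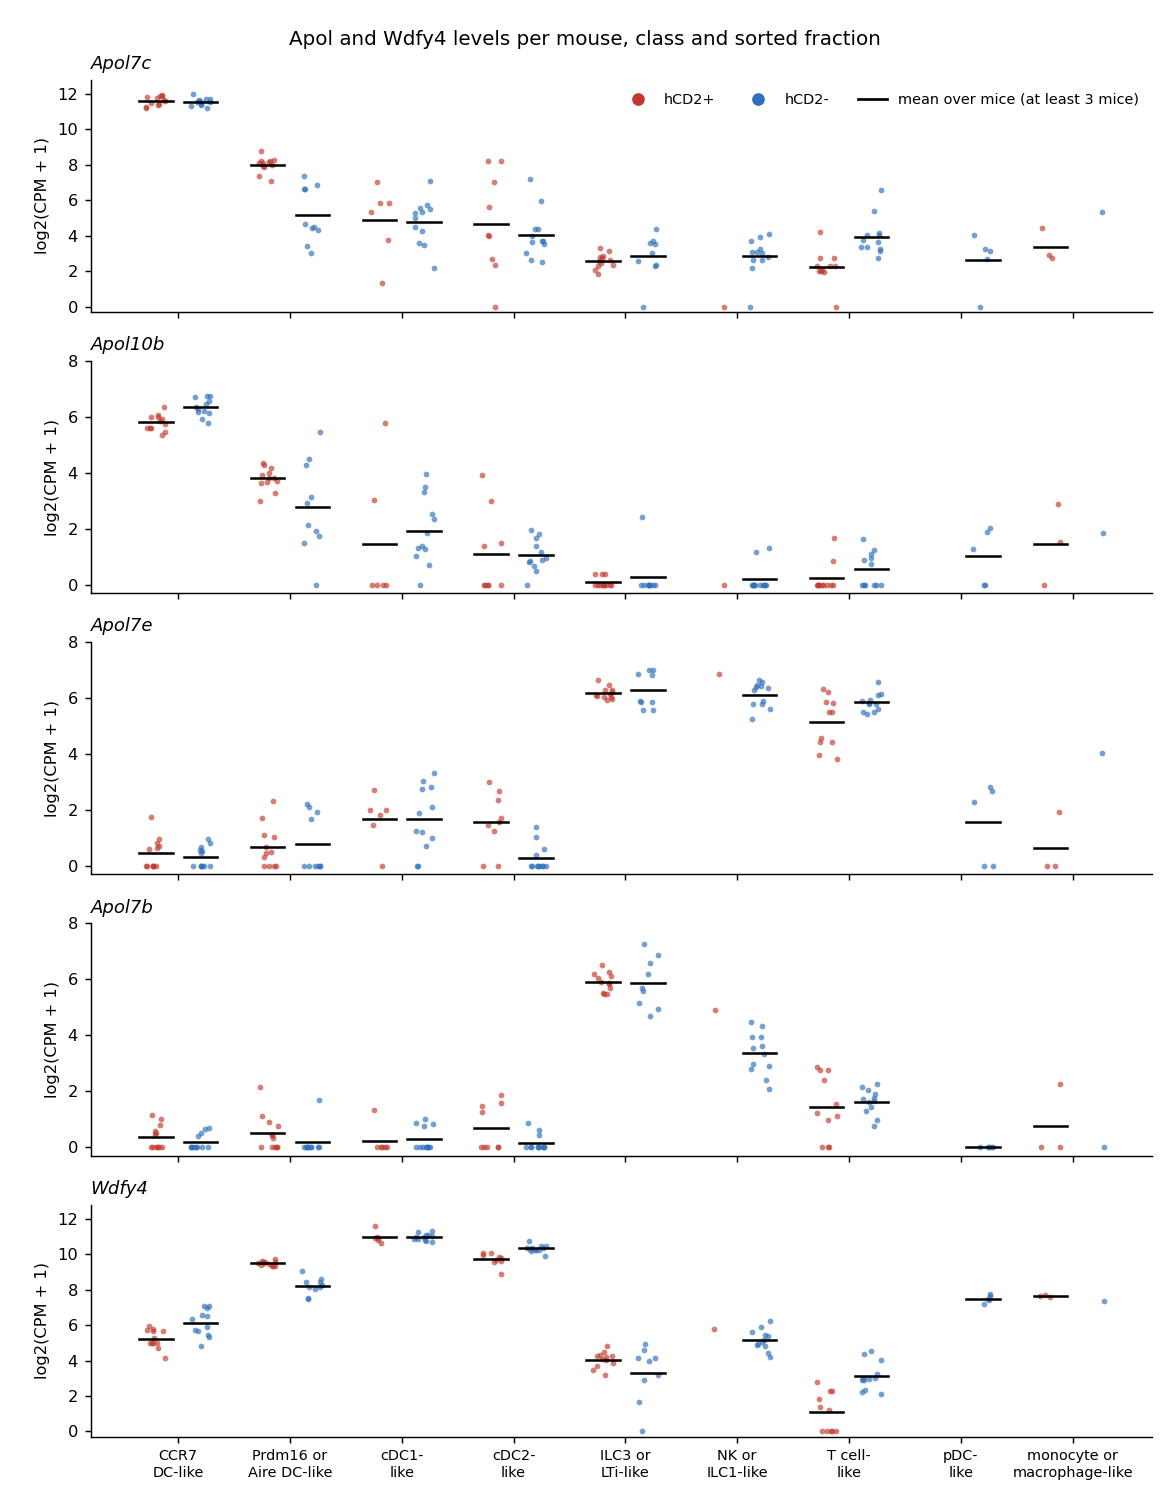
Level of the 5 genes by cell class, as log2(CPM + 1), each point 1 mouse with at least 10 cells, red for hCD2+ (left) and blue for hCD2- (right), bars the mean of the log values over at least 3 mice. Apol7c and Apol10b peak in CCR7 migratory DC-like cells, Apol7e in ILC3, NK and T cell-like cells, Apol7b in ILC3 or LTi-like cells, and Wdfy4 in cDC1-like and cDC2-like cells.

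In the fit of UMI sums, Apol7c was higher in CCR7 migratory DC-like than in cDC1-like cells of the hCD2- library by 6.73 ± 0.30 on the log2 scale (± SE), and higher than in cDC2-like cells by 7.28 ± 0.40. These 2 comparisons share the CCR7 samples, and the second value was 4.56 with DESeq2. Between cDC1-like and cDC2-like cells the difference was 0.51 ± 0.51, no larger than its error. Among hCD2+ cells the Prdm16 or Aire class was lower than the CCR7 class, with a log2 difference of -3.86 ± 0.15 and higher than ILC3 or LTi-like cells by 5.82 ± 0.19.

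Across cell classes Apol10b followed Apol7c at a lower level. It averaged 55.7 ± 11.47 CPM in hCD2+ CCR7 migratory DC-like cells (40.1 to 81.2, median 55.2, n = 12) and 81.9 ± 17.9 CPM in hCD2- ones (53.7 to 107, median 79.0, n = 12). Prdm16 or Aire DC-like cells had 13.4 ± 3.79 CPM in hCD2+ samples (6.87 to 19.6) and 10.8 ± 13.5 CPM in hCD2- samples (0 to 43.3). The 2 classes did not overlap in either fraction. In cDC1-like cells the mean of 10.1 CPM over 6 hCD2+ samples came from 2 mice, one of them at 53.4 CPM and so within the CCR7 range, and 4 mice were at 0. The hCD2- cDC1-like samples averaged 4.29 ± 4.61 CPM (0 to 14.6). The remaining classes with 4 or more mice averaged at most 2.71 CPM. On the log2 scale Apol10b differed by 4.65 ± 0.26 between CCR7 and cDC1-like cells and by 6.28 ± 0.20 between CCR7 and cDC2-like cells of the hCD2- library, and by -2.36 ± 0.14 between the Prdm16 or Aire and CCR7 classes and 6.99 ± 0.33 between the Prdm16 or Aire and ILC3 or LTi-like classes of the hCD2+ library. It was too low for the filter in the comparison of cDC1-like with cDC2-like cells.

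Wdfy4 had the opposite distribution among dendritic cells. In cDC1-like cells it averaged 2054 ± 529 CPM over 6 hCD2+ samples (1574 to 3086, median 1931) and 2017 ± 273 CPM over 12 hCD2- samples (1669 to 2522, median 1996). In cDC2-like cells it averaged 863 ± 182 CPM over 9 hCD2+ samples (479 to 1056, median 897) and 1290 ± 185 CPM over 12 hCD2- samples (951 to 1726, median 1270). cDC1-like samples were all above cDC2-like samples in the hCD2+ library, and the 2 classes touched in the hCD2- library, where they differed by 0.65 ± 0.08 on the log2 scale. Prdm16 or Aire DC-like cells had 721 ± 64.6 CPM in hCD2+ samples (633 to 841), which overlapped the hCD2+ cDC2-like range, and 310 ± 103 CPM in 10 hCD2- samples (177 to 535), which did not overlap the hCD2- cDC2-like range.

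The mature CCR7 migratory DC-like cells had 38.9 ± 13.6 CPM of Wdfy4 in hCD2+ samples (16.9 to 61.2, median 34.5) and 77.3 ± 38.1 CPM in hCD2- samples (27.2 to 133, median 69.8). No sample of this class reached any sample of cDC1-like, cDC2-like or Prdm16 or Aire DC-like cells. In the hCD2- library the class was lower than cDC1-like cells, with a log2 difference of -4.34 ± 0.21 and lower than cDC2-like cells, with a log2 difference of -3.66 ± 0.20, and for hCD2+ cells the Prdm16 or Aire class was higher than the CCR7 class by 3.87 ± 0.14. hCD2- pDC-like cells had 180 ± 26.6 CPM (146 to 215, n = 5), hCD2+ monocyte or macrophage-like cells 198 ± 7.76 CPM (n = 3) and hCD2- NK or ILC1-like cells 37.8 ± 15.99 CPM (17.7 to 73.1, n = 12). T cell-like cells had 1.74 ± 2.06 and 9.13 ± 6.20 CPM, neither above its free RNA bound of 7.47 and 18.6 CPM; at clustering resolution 2.0 the hCD2+ value was 40.9 CPM.

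The spread of Wdfy4 over single cells differed from that of Apol7c. After thinning it was seen in 100% of hCD2+ and 99.7% of hCD2- cDC1-like cells, in 88.2% and 96.4% of cDC2-like cells, in 71.6% and 62.2% of Prdm16 or Aire DC-like cells and in 10.3% and 18.03% of CCR7 migratory DC-like cells, with 1.32% and 4.53% in T cell-like cells. The median cDC1-like cell held 80 UMIs in the hCD2+ and 89 in the hCD2- library, and 0 of these cells lacked a Wdfy4 UMI before thinning. Within the CCR7 class 76.6% of hCD2+ and 63.3% of hCD2- cells had 0 UMIs, and the top 5% of cells held 72.9% and 64.6% of its Wdfy4.

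Inside the Prdm16 or Aire class the 2 patterns separated by cluster. In hCD2+ samples cluster 2, in which the autoimmune regulator gene Aire was a leading gene, had 674 ± 180 CPM of Apol7c (373 to 893), 51.3 ± 16.3 CPM of Apol10b (25.1 to 75.2) and 118 ± 45.2 CPM of Wdfy4 (57.5 to 205). Cluster 3, led by Slc28a3 and the polymeric immunoglobulin receptor gene Pigr, had 178 ± 58.2 CPM of Apol7c (94.4 to 262), 2.47 ± 1.77 CPM of Apol10b (0 to 5.23) and 1052 ± 115 CPM of Wdfy4 (876 to 1256). All 12 mice had more Apol7c and Apol10b and less Wdfy4 in cluster 2 than in cluster 3, and the ranges did not overlap for any of the 3 genes. The ratio of cluster 2 to cluster 3 was 3.78 for Apol7c, 20.7 for Apol10b and 0.112 for Wdfy4. Cluster 3 thus had a mean Wdfy4 level between those of hCD2+ cDC2-like and cDC1-like cells. Its range overlapped the hCD2+ cDC2-like range of 479 to 1056 CPM. The mean Apol10b of cluster 2 was within the range of hCD2+ CCR7 migratory DC-like cells. Of the 10 CCR7 class markers 5 were raised in cluster 2 and 0 in cluster 3. Cluster 6, led by Nrg1 and Ncam1, had 64.6 ± 52.5 CPM of Apol7c, 3.38 ± 3.31 CPM of Apol10b and 274 ± 71.9 CPM of Wdfy4 (n = 11). Its Wdfy4 range of 166 to 411 CPM overlapped that of cluster 2, and its Apol7c and Apol10b ranges overlapped those of cluster 3. Within mice, Wdfy4 was lower in cluster 2 than in cluster 6 in 11 of 11 (ratio 0.431), and Apol7c was higher in cluster 3 than in cluster 6 in 11 of 11 (ratio 2.76).

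Between single cells the picture was mixed. Among thinned Prdm16 or Aire DC-like cells of the hCD2+ fraction, Wdfy4 was seen in 61.4% of those with Apol7c and in 77.9% of those without, and Apol10b in 11.53% and 3.21%. These cells are pooled over the clusters just described, so the shares repeat their difference. In CCR7 migratory DC-like cells Apol10b was seen in 20.03% of hCD2+ cells with Apol7c and 4.84% of those without, and in 29.1% and 3.33% of hCD2- cells. Wdfy4 was seen in 17.0% of hCD2- CCR7 cells with Apol7c and 33.3% of those without, but in hCD2+ ones in 10.4% and 9.68%. Since 664 of 726 hCD2+ and 872 of 932 hCD2- CCR7 cells had Apol7c, the shares without it rest on few cells. In hCD2- resident cells Wdfy4 hardly differed by Apol7c: it was seen in 100% of cDC1-like cells with Apol7c (28 of 327 cells) and 99.7% of those without, and in 95.1% and 96.4% of cDC2-like cells. Cells of a library are not replicates, and these shares were not tested.

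**Figure D2:**
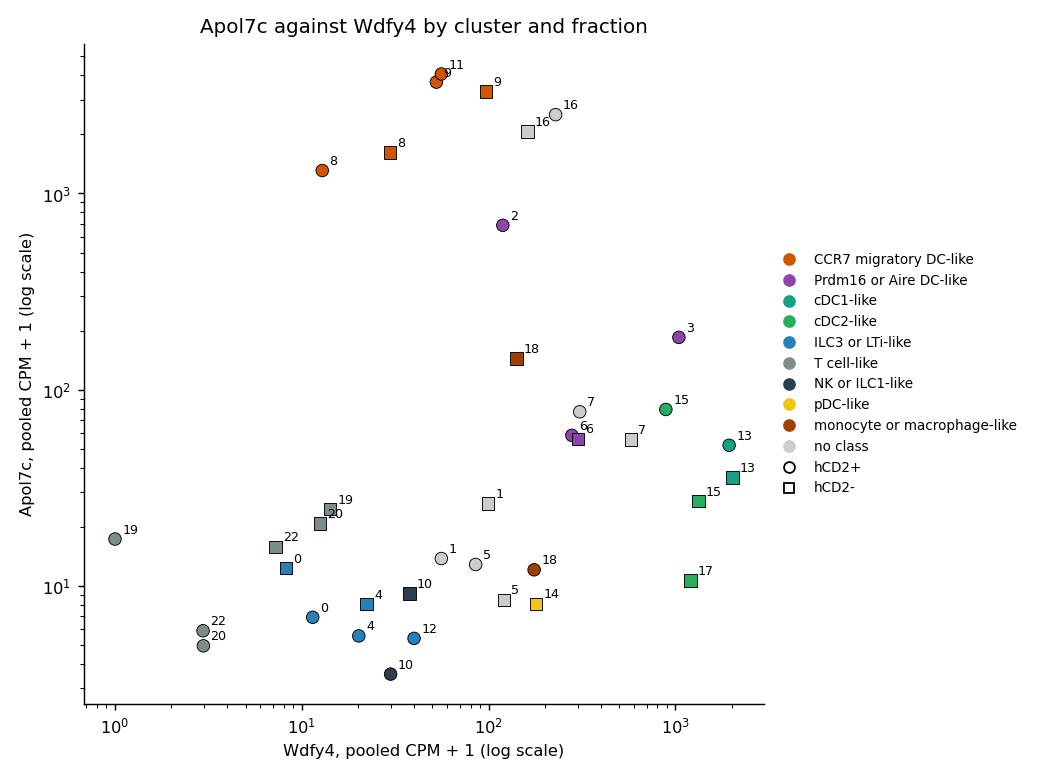
Wdfy4 (x axis) and Apol7c (y axis) in each cluster of at least 50 cells, as CPM + 1 over pooled cells on log axes, circles for hCD2+ and squares for hCD2-, colours for the class, grey for clusters with no class, numbers for the cluster. CCR7 migratory DC-like clusters 8, 9 and 11 lie at high Apol7c and low Wdfy4, cDC1-like cluster 13 at high Wdfy4 and low Apol7c, and clusters 2 and 3 of the Prdm16 or Aire class stand apart from each other.

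The CCR7 class was not uniform in Apol7c either. Cluster 8, led by Bcl2l14 and Spock1, had 1252 ± 462 CPM in hCD2+ (n = 10) and 1756 ± 452 CPM in hCD2- samples (n = 5). Cluster 9, led by Dkk2, St18 and the chemokine gene Ccl17, had 3685 ± 514 and 3320 ± 478 CPM (n = 12 each), and 0 of 10 mice had more in cluster 8 than in cluster 9 of the hCD2+ library, with no overlap. Cluster 11, led by Macc1 and found almost wholly in the hCD2+ library (222 and 8 cells), had 4069 ± 692 CPM of Apol7c (n = 8) but 20.3 ± 7.29 CPM of Apol10b, against 73.2 ± 34.8 CPM of Apol10b in hCD2+ cluster 9. Beside 7 of the 10 CCR7 class markers, cluster 11 had 3 Prdm16 or Aire class markers and 3 epithelial markers raised. It made up 222 of the 751 hCD2+ cells of the CCR7 class, so that class was mixed in this library. Cluster 8, lower in Apol7c, had 79.0 ± 29.8 CPM of Apol10b in hCD2+ samples, higher than cluster 9 in 6 of 10 mice. In hCD2- samples it had 103 ± 50.5 CPM of Apol10b, against 79.9 ± 17.1 CPM in cluster 9, higher in 4 of 5 mice. Apol7c and Apol10b therefore did not move together between the clusters of this class.

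Apol7e and Apol7b belonged to lymphoid cells. Apol7e averaged 72.6 ± 11.4 CPM in hCD2+ ILC3 or LTi-like cells (60.7 to 99.0, median 69.4, n = 12) and 83.3 ± 36.4 CPM in hCD2- ones (46.1 to 129, median 59.3, n = 9). hCD2- NK or ILC1-like cells had 71.6 ± 20.2 CPM (36.8 to 98.6, n = 12), and T cell-like cells 40.7 ± 23.9 CPM in hCD2+ (13.3 to 79.6, n = 11) and 57.8 ± 14.3 CPM in hCD2- samples (42.6 to 94.0, n = 12). Neighbours in this order overlapped, whereas no T cell-like sample overlapped a cDC1-like or cDC2-like sample of its library. The order leaves out hCD2+ NK or ILC1-like cells, which had 115 CPM in the 1 mouse with enough cells and 105 CPM over all 57 cells pooled. Dendritic classes had at most 3.198 CPM on average. The coarser clustering at resolution 0.5 gave T cell-like cells 8.85 CPM in hCD2+ and 31.5 CPM in hCD2- samples. At that setting the cluster with Cd8b1 among its leading genes (220 hCD2+ and 576 hCD2- cells) stayed unnamed and was not part of the class.

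Within T cell-like cells Apol7e depended on the cluster. Cluster 22, with Cd8b1 and Cd8a among its leading genes, had 79.98 ± 30.2 CPM in hCD2+ and 80.4 ± 24.7 CPM in hCD2- samples, and cluster 19, led by Cd40lg, had 54.5 ± 18.1 CPM in hCD2- samples. Cluster 20, with the regulatory T cell genes Foxp3 and Ctla4 among its leading genes, had 3.53 ± 2.06 and 8.23 ± 7.38 CPM.

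Apol7b was close to an ILC3 or LTi-like gene. It averaged 60.3 ± 14.3 CPM there in hCD2+ (43.4 to 89.3, median 58.0, n = 12) and 68.8 ± 43.8 CPM in hCD2- samples (24.5 to 153, median 50.4, n = 9). hCD2- NK or ILC1-like cells had 10.6 ± 5.72 CPM (3.21 to 21.0), T cell-like cells 2.50 ± 2.53 and 2.22 ± 0.930 CPM, and dendritic classes at most 0.865 CPM. Every ILC3 or LTi-like sample was above every sample of the next class of its library. Among hCD2+ cells the Prdm16 or Aire class was lower than ILC3 or LTi-like cells, with a log2 difference of -6.47 ± 0.23 for Apol7e and -6.09 ± 0.28 for Apol7b; elsewhere among dendritic cells both genes fell below the filter.

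Because the 2 genes share 3′ sequence, the part of Apol7b in their joint UMIs was set side by side between classes. It was 45.1 ± 5.87% in hCD2+ ILC3 or LTi-like cells (36.2% to 56.5%, n = 12) and 44.0 ± 19.0% in hCD2- ones (17.6% to 73.1%, n = 9). It was 12.7 ± 4.90% in hCD2- NK or ILC1-like cells (3.80% to 20%, n = 12), and 5.70 ± 4.31% in hCD2+ (0% to 12.5%, n = 11) and 3.89 ± 1.88% in hCD2- T cell-like cells (1.37% to 7.41%, n = 12). hCD2+ ILC3 or LTi-like samples were all above the hCD2- NK or ILC1-like samples and the T cell-like samples of either library. In thinned hCD2+ ILC3 or LTi-like cells Apol7b was seen in 26.5% of cells with Apol7e and in 16.8% of those without, and in hCD2- ones in 23.5% and 8.77%.

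**Figure D3:**
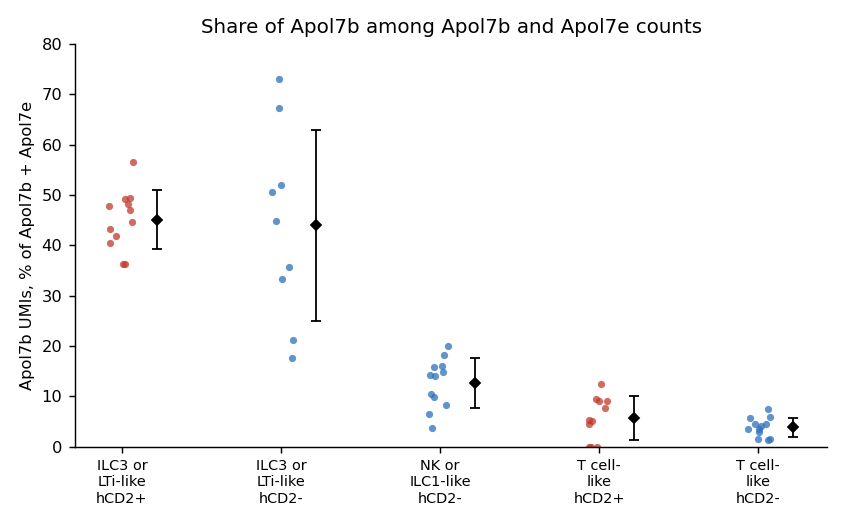
Percentage of Apol7b among the UMIs of Apol7b and Apol7e together, each point 1 mouse, diamonds the mean ± SD over mice, for ILC3 or LTi-like and T cell-like cells of both fractions and hCD2- NK or ILC1-like cells. The hCD2+ ILC3 or LTi-like samples lie between 36.2% and 56.5%, and T cell-like samples at or below 12.5%.

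An ILC3 or LTi-like cluster had more Apol7e but not more Apol7b than its neighbours. Cluster 12, led by Iigp1, Gbp6, Tgtp1 and Igtp, GTPase genes that interferon induces, had Apol7e levels of 77.9, 156, 194 and 87.3 CPM in the 4 hCD2+ samples with enough cells (mice 4, 6, 9 and 12). The same mice had 73.6, 81.2, 74.8 and 64.1 CPM in cluster 0 and 51.6, 54.3, 74.3 and 59.9 CPM in cluster 4. All 4 were higher in cluster 12, although 2 of them by little against cluster 0. Apol7b in cluster 12 was 34.6, 52.6, 54.9 and 43.7 CPM, against 41.5, 109, 53.0 and 71.8 CPM in cluster 0, higher in 1 of 4 mice. The promoter of Apol7e holds the ISRE matches printed above and that of Apol7b lacks them, and neither difference was tested. Apol7c and Apol10b hold ISRE matches too. Apol7c averaged 5.10 CPM in cluster 12 (n = 4) and 6.08 CPM in cluster 0 (n = 12), higher in cluster 12 in 2 of 4 mice. Apol10b averaged 0 and 0.117 CPM. Neither was above its free RNA bound in hCD2+ ILC3 or LTi-like cells. The division of molecules between Apol7e and Apol7b also remains uncertain.

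Wdfy4 was low in ILC3 or LTi-like cells, at 16.3 ± 5.18 CPM in hCD2+ (8.08 to 27.02) and 13.1 ± 9.80 CPM in hCD2- samples (0 to 29.7), with a free RNA bound of 4.08 CPM in the hCD2+ library. In hCD2+ samples cluster 0 had 10.002 ± 4.08 CPM and cluster 4 had 19.7 ± 6.89 CPM. The Sema3d-led cluster 5, which had ILC3 markers but no class, had 84.6 ± 15.2 CPM (56.3 to 107), above clusters 0 and 4 in 12 of 12 mice and with no overlap. With cluster 5 added to the class, a choice made after seeing the data, the level was 32.2 CPM in hCD2+ and 49.2 CPM in hCD2- samples.

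Between fractions, Apol7c in CCR7 migratory DC-like cells was nearly equal: 7 of 12 mice were higher in hCD2+, and the log2 difference was 0.03 ± 0.09 (-0.15 without the Macc1-led cluster, left out after seeing the data). Apol10b was lower in hCD2+ in 11 of 12 mice, with a log2 difference of -0.60 ± 0.12, or -0.15 without that cluster. Wdfy4 was lower in hCD2+ in 9 of 12 mice, with a log2 difference of -0.99 ± 0.24. The top of the hCD2+ range for Wdfy4 (61.2 CPM) lay inside the hCD2- range of 27.2 to 133 CPM, and the Apol10b ranges overlapped too.

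In Prdm16 or Aire DC-like cells all 10 mice with both samples had more Apol7c and more Wdfy4 in hCD2+ than in hCD2- cells, by 2.19 ± 0.33 and 1.28 ± 0.12 on the log2 scale. Apol10b differed by 0.57 ± 0.41. The makeup of the class differed as well: Wdfy4-high cluster 3 held 683 hCD2+ cells and 1 hCD2- cell, and Apol7c-high cluster 2 held 312 and 14. Of the 164 hCD2- cells 149 were in cluster 6, so the fractions of this class set mostly different clusters side by side. Cluster 6 had 3 of the 10 class markers raised, the fewest that gave a name, against 7 in cluster 2 and 8 in cluster 3. In cluster 6, the one of the 3 with at least 50 cells in each fraction (252 and 149), Wdfy4 was 274 ± 71.9 CPM in 11 hCD2+ and 301 ± 77.0 CPM in 8 hCD2- samples and was higher in hCD2+ in 4 of 8 mice. Apol7c there was 64.6 ± 52.5 and 40.5 ± 36.5 CPM and was higher in hCD2+ in 6 of 8 mice. The class's own 10 markers summed to 4380.2 CPM (3939 to 5124) in hCD2+ and 625.02 CPM (261 to 1211) in hCD2- samples, where Pigr was at 0. The 10 CCR7 class markers summed to 2502 CPM (2155 to 2795) and 4005 CPM (3143 to 5173). The part of these cells in the differences was not tested.

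cDC2-like cells went the other way for Wdfy4, which was lower in hCD2+ in 9 of 9 mice, with a log2 difference of -0.61 ± 0.10. Within cluster 15 alone it was 896 ± 222 CPM in hCD2+ and 1306 ± 185 CPM in hCD2- samples, lower in hCD2+ in 8 of 8 mice. Markers of other cells moved with the fractions. The 6 stromal markers summed to 1728.5 CPM (0 to 12108) in hCD2+ cDC2-like samples and 0.717 CPM (0 to 3.47; Pdgfra at 0) in hCD2- ones, and mouse 4, with the 12108 CPM, also had the lowest Wdfy4 at 479 CPM; the other 8 hCD2+ samples had 745 to 1056 CPM. The 10 Prdm16 or Aire class markers summed to 99.9 CPM (11.1 to 312) and 8.12 CPM (1.74 to 23.6; Pigr, Tnfrsf11b and Tdh at 0). The 9 monocyte markers summed to 951 CPM (291 to 1669.8) and 567 CPM (457 to 975), and the 10 cDC2 markers themselves to 911 CPM (513 to 1241) and 1039.9 CPM (887 to 1175). Their part in the Wdfy4 difference was not tested. Apol7c in cDC2-like cells differed by 1.65 ± 0.70, or 0.67 with at least 20 cells per mouse. In cDC1-like cells Wdfy4 differed by 0.04 ± 0.12 and Apol7c by 0.48 ± 0.54. In ILC3 or LTi-like cells Apol7e differed by -0.25 ± 0.17, Apol7b by -0.30 ± 0.23 and Wdfy4 by 0.48 ± 0.39, the last between -0.58 and 1.89 under other choices.

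**Figure D4:**
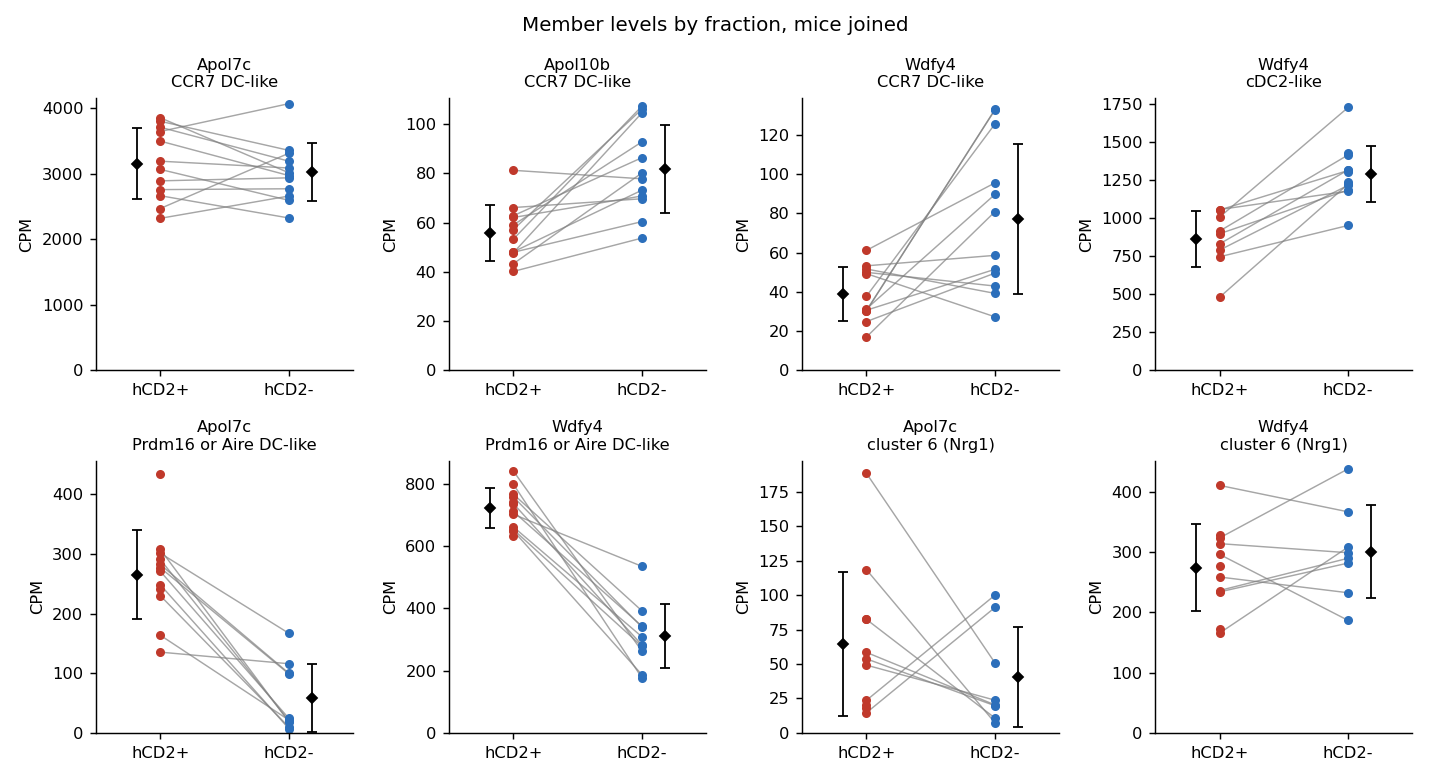
Levels (CPM) of Apol7c, Apol10b and Wdfy4 in hCD2+ (left) and hCD2- (right) samples of the classes named above each panel, points for mice, grey lines joining the samples of 1 mouse, diamonds the mean ± SD. Wdfy4 is higher in Prdm16 or Aire DC-like cells of the hCD2+ fraction in 10 of 10 mice and lower in hCD2+ cDC2-like cells in 9 of 9, and the cluster 6 panels show overlapping fractions.

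The rest of the pathway was read from lists of 16 genes of MHC class I loading, 30 of cross-presentation, 7 other BEACH-domain genes and 9 other Apol genes. The lists were chosen with earlier results of these data known, and genes are named from them by smallest adjusted p. Their calls are therefore no independent support. Calls are at an adjusted p below 0.05 over all genes tested (edgeR quasi-likelihood, Benjamini-Hochberg). The medians over all genes tested lay between -0.05 and 0.04 on the log2 scale in every comparison. The log2 differences and list medians come from the fit, which rescales samples by trimmed means (TMM), whereas CPM divide by all UMIs. The 2 can therefore differ in size, as in the comparisons of the CCR7 class with resident classes below. For cDC1-like against cDC2-like cells, both hCD2-, 57.4% of all tested genes were called (28.6% higher, 28.9% lower). Of the class I loading genes 12 of 16 rose and 1 fell (median log2 difference 0.74), of 26 cross-presentation genes tested 10 rose and 12 fell (-0.02), and of 7 BEACH genes 3 rose and 3 fell (-0.05). Pdia3, which encodes the ERp57 chaperone of the loading complex, had 950 ± 102 CPM in cDC1-like and 394 ± 55.2 CPM in cDC2-like cells (log2 1.27 ± 0.07, edgeR adjusted p = 1.64e-15, higher in 12 of 12 mice). The scavenger receptor gene Cd36 had 155 ± 31.7 and 2.33 ± 3.37 CPM (5.91 ± 0.28, edgeR adjusted p = 5.98e-17). Cybb, the gp91phox subunit of the phagosomal oxidase, had 4.30 ± 2.86 and 317 ± 26.2 CPM (-5.98 ± 0.15, edgeR adjusted p = 1.78e-23). Lyst, the BEACH gene of lysosome size, had 360 ± 32.5 and 1402 ± 153 CPM (-1.96 ± 0.06, edgeR adjusted p = 1.07e-20), opposite in direction to Wdfy4, and Wdfy3, the closest relative of Wdfy4, had 81.2 ± 11.01 and 51.3 ± 6.79 CPM (0.66 ± 0.08, edgeR adjusted p = 1.93e-08).

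CCR7 migratory DC-like cells, with high Apol7c and low Wdfy4, had more of most class I loading genes than either resident class. Against cDC1-like cells, where 81% of all genes were called (38.8% higher, 42.2% lower), 11 of 16 rose and 4 fell (median 0.84). Against cDC2-like cells, where 78.3% were called (37.2% higher, 41.1% lower), 13 rose and 2 fell (1.42). Psme2, a subunit of the proteasome activator, had 1108 ± 139 CPM in the CCR7 class and 366 ± 40.1 CPM in cDC1-like cells (log2 1.95 ± 0.07, edgeR adjusted p = 1.42e-20), and the class I heavy chain gene H2-K1 had 1745 ± 85.4 CPM in the CCR7 class and 711 ± 64.5 CPM in cDC2-like cells (1.67 ± 0.05, edgeR adjusted p = 2.06e-23). Pdia3 fell against both, at 196 ± 10.7 CPM in the CCR7 class (-1.92 ± 0.06 against cDC1-like, edgeR adjusted p = 4.34e-22; -0.62 ± 0.06 against cDC2-like, edgeR adjusted p = 2.27e-10).

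Cross-presentation genes moved both ways in the CCR7 class. Of 26 tested, 14 rose and 10 fell against cDC1-like cells (median 0.48), and 12 rose and 7 fell against cDC2-like cells (0.02). Ifi30, the lysosomal thiol reductase, had 958 ± 54.4 CPM in the CCR7 class and 467 ± 36.6 CPM in cDC1-like cells (1.39 ± 0.05, edgeR adjusted p = 1.79e-20), and the vesicle fusion gene Vamp3 had 15.6 ± 2.14 and 61.7 ± 10.7 CPM (-1.61 ± 0.10, edgeR adjusted p = 6.87e-15). Vcp, the ATPase that extracts proteins from membranes, had 412 ± 28.8 CPM in the CCR7 class and 202 ± 17.7 CPM in cDC2-like cells (1.41 ± 0.05, edgeR adjusted p = 3.84e-20), and Rac2, which activates the phagosomal oxidase, had 55.2 ± 11.9 and 304 ± 23.0 CPM (-2.09 ± 0.09, edgeR adjusted p = 1.13e-18). Among 6 BEACH genes tested, 2 rose and 3 fell against cDC1-like cells and 2 rose and 4 fell against cDC2-like cells.

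In Prdm16 or Aire DC-like against CCR7 migratory DC-like cells of the hCD2+ library, 74.8% of all genes were called (39.6% higher, 35.2% lower). The class I loading genes fell in 15 of 16 cases and rose in 0 (median -1.30), with Psme1 at 268 ± 21.7 CPM in the Prdm16 or Aire class and 748 ± 67.5 CPM in the CCR7 class (-1.77 ± 0.05, edgeR adjusted p = 3.39e-21). Of 25 cross-presentation genes 7 rose and 13 fell (-0.18), with Rac2 at 421 ± 26.9 and 66.0 ± 20.9 CPM (2.38 ± 0.12, edgeR adjusted p = 1.01e-16) and Cd36 at 2.71 ± 1.48 and 83.8 ± 33.5 CPM (-5.33 ± 0.26, edgeR adjusted p = 1.1e-16). Of 7 BEACH genes 4 rose and 1 fell (0.61). Against ILC3 or LTi-like cells of that library, where 81.1% were called (40.7% higher, 40.4% lower), 11 of 16 class I loading genes rose and 4 fell (0.32), 12 of 25 cross-presentation genes rose and 9 fell (0.06), and 5 of 7 BEACH genes rose and 0 fell (1.14). Lyst had 1190 ± 111 CPM in the Prdm16 or Aire class and 90.9 ± 12.9 CPM in ILC3 or LTi-like cells (3.86 ± 0.07, edgeR adjusted p = 2.85e-27). The 2 comparisons share the Prdm16 or Aire samples.

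Between fractions, 49% of genes were called in the Prdm16 or Aire class (24.8% higher, 24.3% lower in hCD2+). There, 13 of 16 class I loading genes rose and 0 fell (median 0.67), 12 of 24 cross-presentation genes rose and 3 fell (0.22), and 5 of 7 BEACH genes rose and 1 fell (0.74). The immunoproteasome gene Psmb8 had 259 ± 20.8 CPM in hCD2+ and 92.7 ± 29.7 CPM in hCD2- samples (1.52 ± 0.13, edgeR adjusted p = 9.24e-11), Wdfy3 152 ± 13.0 and 64.3 ± 22.7 CPM (1.29 ± 0.13, edgeR adjusted p = 5.59e-09) and Cybb 25.8 ± 8.93 and 160 ± 49.0 CPM (-2.57 ± 0.19, edgeR adjusted p = 8.74e-12). The difference in cluster makeup given above applies to these genes too.

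In the CCR7 class 32.7% of genes were called between fractions (16.7% higher, 16% lower), among them 7 class I loading genes higher and 2 lower of 16, and 8 cross-presentation genes higher and 8 lower of 26. H2-K1 had 2257 ± 151 CPM in hCD2+ and 1745 ± 85.4 CPM in hCD2- samples (0.34 ± 0.04, edgeR adjusted p = 1.85e-07), and Lyst 390 ± 68.6 and 643 ± 98.4 CPM (-0.76 ± 0.09, edgeR adjusted p = 1.48e-07). In cDC2-like cells 18.1% of genes were called (9.6% higher, 8.5% lower), with 2 of 16 class I loading genes higher and 1 lower, 1 of 25 cross-presentation genes higher and 3 lower, and 2 of 6 BEACH genes lower. Lyst had 929 ± 221 CPM in hCD2+ and 1402 ± 153 CPM in hCD2- cDC2-like samples (-0.62 ± 0.10, edgeR adjusted p = 0.000159); the marker sums given above for these samples apply here too. In ILC3 or LTi-like cells 2.58% of genes were called (1.07% higher, 1.52% lower). edgeR called 0 of 16 class I loading genes there (2 at an unadjusted p under 0.05, 0 by DESeq2), 2 of 24 cross-presentation genes, both higher (0 with mouse as a block), and 0 of 7 BEACH genes (4 unadjusted, 1 by DESeq2). In cDC1-like cells 0.856% were called, and edgeR called 0 of 16 class I loading genes (3 unadjusted, 0 by DESeq2), 0 of 25 cross-presentation genes (3 unadjusted, 1 by DESeq2) and 0 of 6 BEACH genes (1 unadjusted, 0 by DESeq2). The block left 2 class I loading, 2 cross-presentation and 1 BEACH gene called in cDC2-like cells. With mouse as a block, the number of genes called in all was 968 in place of 1624 for cDC2-like, 137 in place of 254 for ILC3 or LTi-like and 38 in place of 72 for cDC1-like cells.

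**Figure D5:**
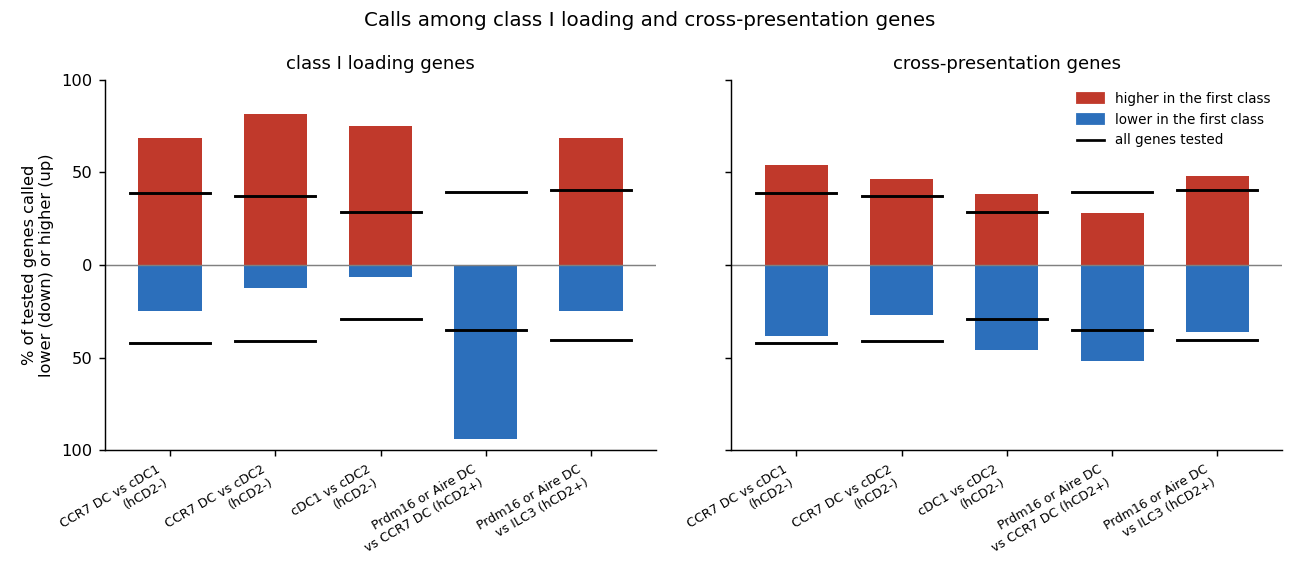
Percentage of tested class I loading and cross-presentation genes called higher (upward bars) or lower (downward bars) in each of the 5 class comparisons, with black lines for all genes tested. Class I loading genes were called higher in 12 of 16 cases in cDC1-like against cDC2-like cells and lower in 15 of 16 in Prdm16 or Aire against CCR7 migratory DC-like cells.

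Of the 9 other Apol genes Apol8 alone passed the filter in any of the 10 comparisons, in 5 of them; it had 1566 UMIs in all, the next, Apol9b, 133. Apol8 had 10.4 ± 3.91 CPM in CCR7 migratory DC-like and 4.61 ± 1.48 CPM in cDC2-like cells of the hCD2- library (log2 1.596 ± 0.21, edgeR adjusted p = 7.9e-08, higher in 11 of 12 mice). It had 6.02 ± 1.65 CPM in Prdm16 or Aire DC-like and 2.38 ± 0.999 CPM in ILC3 or LTi-like cells, both hCD2+ (1.44 ± 0.19, edgeR adjusted p = 9.83e-08). Between fractions it was lower in hCD2+ CCR7 migratory DC-like cells, at 5.34 ± 2.19 against 10.4 ± 3.91 CPM (-0.94 ± 0.23, edgeR adjusted p = 0.00235, lower in 12 of 12 mice). T cell-like cells had 7.74 ± 3.07 CPM in hCD2+ and 9.32 ± 2.47 CPM in hCD2- samples, so Apol8 was in neither of the 2 expression groups of the members.

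Over 14 groups of class and fraction, the gene whose mean log2(CPM + 1) was most like that of Apol7c was Apol10b (Pearson r = 0.979 of 10606 genes compared), followed by Zmynd15 (0.978), Ltc4s (0.966), Sepsecs (0.965) and Efna2 (0.964). For Wdfy4 the nearest were Plbd1 (0.955), Pik3cb (0.929), March1 (0.926), Ctnnbip1 (0.925) and Sh2b3 (0.925). Between members r was 0.836 for Apol7e and Apol7b, 0.180 for Apol7c and Wdfy4, -0.733 for Apol7e and Wdfy4 and -0.583 for Apol7b and Wdfy4. The groups share libraries and mice, and Zmynd15, Plbd1 and March1 were among the genes used for clustering, so these values describe the pattern and were not tested.

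Whether a mouse's level repeated in its other library is a measure the choice of genes did not use. In CCR7 migratory DC-like cells Apol7c of the 12 mice had r = 0.530 between hCD2+ and hCD2- samples (two-sided permutation p = 0.0719, adjusted over 4 relations 0.287) and rho = 0.552 (permutation p = 0.0656, adjusted 0.262), and r = 0.720 without the 2 mice farthest from the median. Apol10b (r = 0.220, permutation p = 0.494) and Wdfy4 (r = -0.330, permutation p = 0.295) in the same cells, and Apol7e in T cell-like cells of 9 mice (r = 0.0637, exact permutation p = 0.886), had higher p-values, and 0 of 4 passed at 0.05. With 12 or 9 mice this does not show that the levels are unrelated.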

How the data were processed

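The deposited tables hold UMI counts per gene and droplet, unfiltered, made by the authors with Cell Ranger 8.0.1 on mm10, per the submitters' processing notes, from Chromium 3′ v4 libraries, per the labels' protocols. Separate deposited tables give each called barcode's hashtag state and its posterior probability as a fraction. Handling of introns, strand and reads matching several genes is not given in the sources used here. From 7415 hCD2+ and 4907 hCD2- barcodes with 1 hashtag, those with 500 or more detected genes and no more than 10% mitochondrial UMIs were used; hashtag multiplets (806 and 465) were removed and no further doublet caller was run. Cells were clustered jointly with scanpy 1.11.5 (2000 variable genes, 30 components, 15 neighbours, Leiden resolution 1.0) and named where at least 3 markers of a class were raised. Clusters whose median UMI count was under 1/3 of their library's stayed unnamed.

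The members, the marker lists and the gene lists were chosen with earlier results of these data known. UMI counts were summed per mouse and class and fitted with edgeR 4.0.16 (R 4.3.3; quasi-likelihood, TMM, filterByExpr), with Benjamini-Hochberg adjustment over all genes tested and calls under 0.05; the fit was tested on simulated data. Members have fold changes with SE and no test, apart from the agreement of their levels between libraries. From each list and comparison the called gene of smallest adjusted p in each direction could be named; Apol8 levels in T cell-like cells and the overlap of clusters were added after seeing the values. Alternatives were other size factors, DESeq2 1.42.0, no filter, mouse as a block, at least 20 cells, thinning to 5000 UMIs, other resolutions, a 5% mitochondrial limit and subtraction of free RNA. Mice pair across libraries by the design, 1 hashtag per mouse: deviations from the group means over 8234 genes of samples with the same hashtag correlated at 0.135 to 0.548 (average 0.347), and all 12 pairs exceeded 0.1; 7 of 12 correlated best with their own number. Promoters are those of RefSeq (GRCm38.p6); 5 of 5 members matched.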

Additional observations from a re-analysis of the deposited data

Results flagged for a closer look

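Of 20 groups of 4 to 10 mice in which a lone extreme sample could be sought, 3 had one. A chance rate of about 1 in 20 would hold for normally distributed levels. Levels from few UMIs need not be so distributed: 5 of 9 hCD2+ cDC2-like samples had no Apol10b UMI. Whether 3 of 20 is more than chance gives therefore cannot be read from this count. Apol10b in Prdm16 or Aire DC-like cells of the hCD2- fraction was 43.3 CPM in mouse 4, from 12 UMIs in 13 cells, and the next sample was at 21.4 CPM. Wdfy4 in hCD2+ cDC1-like cells was 3086 CPM in mouse 1, from 1230 UMIs in 10 cells, and the next was at 2016 CPM. Apol10b in hCD2+ cDC2-like cells was 14.0 CPM in mouse 2, from 4 UMIs in 11 cells, and the next was at 6.96 CPM.

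The fractions differed in opposite directions between classes for Wdfy4. The ratio of hCD2+ to hCD2- means was 2.32 in the Prdm16 or Aire class, with 10 of 10 mice higher, against 0.669 in cDC2-like cells, with 9 of 9 mice lower, and 0.191 in T cell-like cells, with 11 of 11 mice lower. Both T cell-like levels, 1.74 and 9.13 CPM, were not above their free RNA bounds of 7.47 and 18.6 CPM, and the hCD2+ one was 40.9 CPM at resolution 2.0, so no direction is read from them. Within cluster 6 of the Prdm16 or Aire class the Wdfy4 ratio was 0.913, with 4 of 8 mice higher. Within cluster 15 of the cDC2-like class it was 0.687, with 8 of 8 mice lower. The unequal cluster makeup of the Prdm16 or Aire class, given above, applies here too. So do the stromal and other marker sums of the cDC2-like samples. The difference between classes was not tested.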

How the results depend on the processing

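Of 525 comparisons of a level with its value under another setting, 32 moved by more than 1 SD. A level counts once for each setting. For the 36 levels of at least 10 CPM it was 14 of 255 comparisons. Those that moved were mostly small classes: Apol7c in hCD2+ cDC1-like cells was 109 CPM at resolution 2.0, and Apol7c and Wdfy4 in hCD2+ T cell-like cells were 36.7 and 40.9 CPM. Apol10b in hCD2+ CCR7 migratory DC-like cells was 75.5 CPM without the Macc1-led cluster. Of 30 member differences 2 changed sign, Apol7c between fractions of the CCR7 class and Wdfy4 between fractions of ILC3 or LTi-like cells.

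Thinning to 5000 UMIs, which leaves fewer molecules, lowered the genes called to 2030 (cDC1-like against cDC2-like), 2738 (CCR7 against cDC1-like), 3678 (CCR7 against cDC2-like), 3363 (Prdm16 or Aire against CCR7) and 5377 (Prdm16 or Aire against ILC3 or LTi-like). Between fractions thinning gave 1047 in the CCR7, 1912 in the Prdm16 or Aire, 69 in the ILC3 or LTi-like, 378 in the cDC2-like and 19 in the cDC1-like class. Without the Macc1-led cluster 1538 genes were called between fractions of the CCR7 class. For ILC3 or LTi-like cells DESeq2 called 489 genes and the class with the Sema3d-led cluster 500. For cDC2-like cells no filter gave 3503. With mouse as a replicate block the counts were 137 for ILC3 or LTi-like, 968 for cDC2-like and 38 for cDC1-like cells; in no other comparison did the block move the count by over 1.5 times. The settings without the Macc1-led and with the Sema3d-led cluster were chosen after seeing the data. The cause of each change was not tested. hCD2+ cDC1-like cells numbered 116, with 6 mice of at least 10 cells.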
